A study of Homo sapiens with 4 samples.

Results

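Silencing of chromatin depends on enzymes that write repressive marks on histones and DNA, on proteins that read them and on complexes that remove activating marks. A list of 52 such genes was described in SK-LMS-1 cells, and all 52 were found by symbol among the 19381 genes of the count table. They fall into 5 functional groups: 9 genes of the KAP1/HUSH pathway with SMCHD1, 7 genes of HP1 and of methylation at lysine 9 of histone H3 (H3K9), 16 Polycomb genes, 11 genes of histone deacetylases (HDACs) and their corepressors, and 9 genes of DNA methylation. SK-LMS-1 is a human leiomyosarcoma cell line, recorded as uterine. RNA was sequenced from 2 libraries of untreated cells and from 2 libraries of cells exposed for 48 h to 50 µM 2-D08, a compound known to inhibit attachment of the protein modifier SUMO. No vehicle is stated for the untreated cells. Nothing says whether replicate libraries represent separate cultures, and p-values therefore cover only the variation among these 4 libraries, possibly technical.

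KAP1, encoded by TRIM28, is brought to DNA by zinc finger proteins and recruits the methyltransferase SETDB1, and SUMO attached to KAP1 is known to help this recruitment. HUSH (TASOR, MPHOSPH8 and PPHLN1) silences transposons and long genes with SETDB1 and MORC2. Polycomb repressive complex PRC2 methylates histone H3 at a lysine (H3K27) through EZH1 or EZH2, PRC1 ubiquitylates histone H2A through RING1 or RNF2, and DNMT1 with UHRF1 copies DNA methylation onto new strands after replication.

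Library totals ran from 14796702 to 31300635 counts. In untreated replicate 1 and treated replicate 2, the libraries with the higher totals, 88.5% and 86.5% of the members' counts were even numbers, against 46.2% and 48.1% in the other libraries; whether reads there were counted more than once was not tested. With those counts halved, a setting added after the data had been seen, 22 of 22 called members kept their calls. Of 8 smooth muscle markers, CALD1 (641 and 679.9 CPM), MYLK (334 and 325 CPM) and TAGLN (27.1 and 26.1 CPM) were present in untreated cells, CNN1 (4.05 and 4.42 CPM) and ACTA2 (6.64 and 4.36 CPM) were lower, MYH11 lay at 0.472 and 0.726 CPM, and DES and MYOCD had 0 counts in both libraries. CPM here is the count scaled to library size and composition (with TMM factors). The mesenchymal marker VIM lay at 9887 and 10195 CPM. With treatment 4 of 6 tested smooth muscle markers and 4 of 4 mesenchymal markers fell, against 16.9% of all genes tested. Among them were MYLK (-1.37 on the log2 scale) and COL1A2 (-2.01). Of the epithelial markers, KRT18 (217 and 194 CPM), KRT8 (22.1 and 18.1 CPM) and KRT19 (21.4 and 19.4 CPM) were detected in untreated cells. EPCAM was under 1.5 CPM in every library and CDH1 had 0 counts in untreated cells. Of these markers 2 of 4 tested fell (50%, against 16.9% of all genes tested). Of the immune markers, CD68 rose from 60.4 and 65.3 CPM to 93.4 and 92.6 CPM and LCP1 from 1.21 and 0.787 CPM to 4.58 and 5.77 CPM, whereas PTPRC and CD3E were under 1.5 CPM in all 4 libraries. The endothelial markers PECAM1, VWF and CDH5 were also under 1.5 CPM throughout, and PECAM1 was called higher. The part of these markers in the changes of the members was not tested. In bulk RNA, fewer cells expressing a gene and less RNA per cell cannot be told apart.

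All 52 members passed the low-count filter. A gene was called changed at an adjusted p under 0.05 in edgeR's quasi-likelihood test, adjusted over 12906 genes. By that rule 22 members changed, which is 42.3% of them, against 33.9% of all genes tested. Of the 22, 13 were higher in treated cells (25% of members against 17.1% of all genes) and 9 were lower (17.3% against 16.9%). The median log2 fold change was -0.01 over members and -0.0033 over all genes. By group, the share called was 22.2% in KAP1/HUSH, 42.9% in HP1 and H3K9 methylation, 50% in Polycomb, 45.5% in the deacetylase group and 44.4% in DNA methylation. Members' fold changes were small, from -1.04 for CBX7 to 0.93 for UHRF1 on the log2 scale, and only CBX7 changed at least 2-fold. Both treated libraries lay above both untreated ones for 22 members (42.3%, against 33.8% of all genes tested). They lay below them for 15 of 52 members, against 4347 of 12906 genes tested (33.7%). For 15 of 52 members the groups overlapped, against 4193 of 12906 genes tested, of which 67.5% did not overlap.

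Many of the 22 calls were lost when an untreated library was left out. Such a fit leaves the untreated group without a spread of its own and takes it from the treated pair. A lost call therefore need not mean a changed value. With untreated replicate 1 left out, SIN3A lay at -0.43 on the log2 scale and EZH1 at -0.51, against -0.43 and -0.52 with all libraries. CBX7 did move, from -1.04 to -0.63. Without untreated replicate 1, UHRF1, EED, DNMT1, HDAC9 and HDAC5 kept their calls, and calls over all genes tested became fewer as well. With limma on log2(TPM + 1) and on log2(TPM + 0.1), 7 of 52 members were called, against 1598 and 1608 of 12906 genes. These 7 were UHRF1, EED, SUV39H2, DNMT1, NCOR1, SIN3A and EHMT2. TPM is read abundance per transcript length, as the authors deposited it. UHRF1, EED and DNMT1 were called under all 16 alternative settings, and 0 of the 22 changed direction in any of them.

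**Figure D1:**
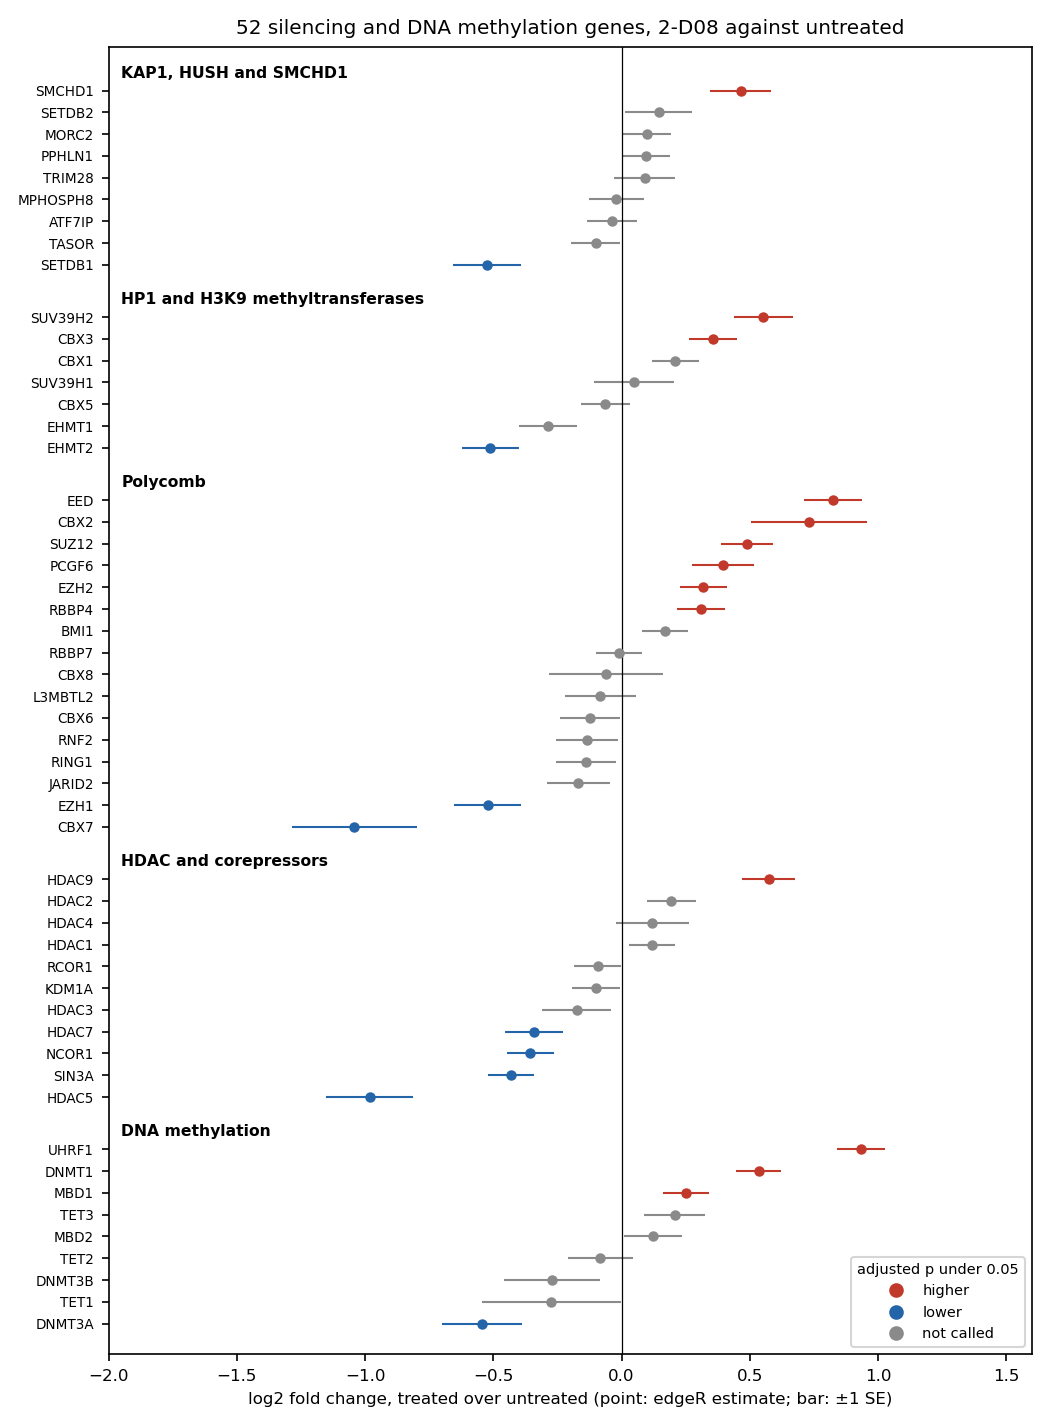
Log2 fold change of each of the 52 members, treated over untreated, with bars of 1 standard error (x axis), grouped by function and ordered by size (y axis). Red marks the 13 members called higher, blue the 9 called lower and grey the 30 not called; UHRF1 (0.93) and CBX7 (-1.04) lie at the ends.

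Levels were compared between members per transcript length, in TPM. HDAC2 (358 and 343 TPM) and CBX3 (346 and 353 TPM) were the most abundant members in the untreated libraries, and their values overlapped. TRIM28 followed at 301 and 278 TPM, then CBX1 at 185 and 198 TPM and RBBP7 at 149.7 and 152 TPM. TET1 (0.77 and 0.92 TPM) and CBX2 (1.24 and 0.92 TPM) were the lowest, and they overlapped as well. In treated cells CBX3 reached 407 and 452 TPM against 349 and 369 TPM for HDAC2, and DNMT1 went from rank 7 to rank 5 among the members.

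**Figure D2:**
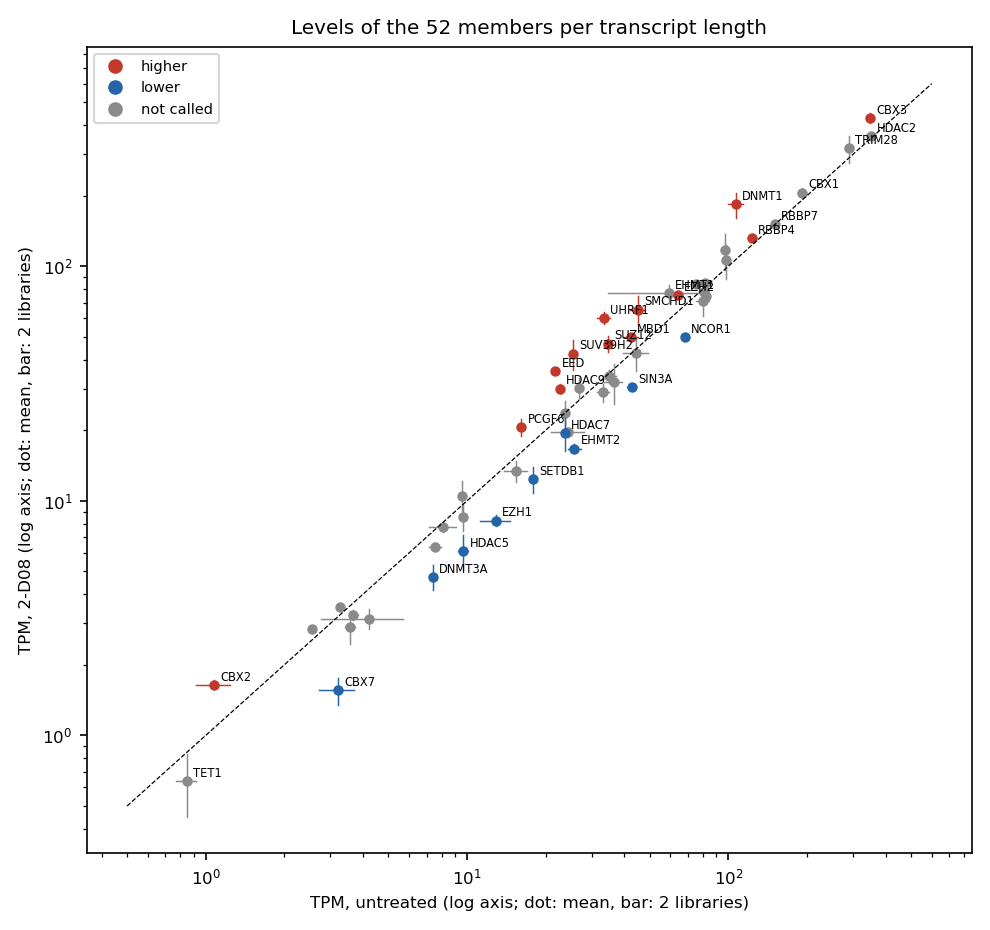
TPM of each member in untreated (x axis) and treated cells (y axis), both on log axes; dots are means and bars span the 2 libraries of a group. Called members are named, as are 6 others, and the dashed line marks equal levels. DNMT1 and UHRF1 lie above the line and CBX7 below it; the untreated EHMT1 libraries are far apart (34.6 and 83.4 TPM).

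Among DNA methylation genes, the maintenance pair rose and a de novo methyltransferase fell. Of 9 genes 3 were higher (UHRF1, DNMT1 and MBD1), 1 was lower (DNMT3A) and 5 did not pass the test, with a median log2 fold change of 0.12. The shares were 33.3% higher and 11.1% lower, against 17.1% and 16.9% of all genes tested. UHRF1, which binds hemimethylated DNA and recruits DNMT1, is on chromosome 19 (4903080 to 4962154, GRCh38). It stood at 95.3 and 87.2 CPM without the compound and at 181 and 168 CPM with it. Both treated values were close to each other and far above the untreated ones (log2 fold change 0.93, SE 0.09, edgeR adjusted p = 7.72e-06). DNMT1, the maintenance methyltransferase (chromosome 19, 10133345 to 10231286), went from 213 and 216 CPM to 306 and 316 CPM. The replicates of DNMT1 nearly coincided within each group, and the groups lay well apart (log2 fold change 0.54, SE 0.09, edgeR adjusted p = 0.00043). MBD1, a reader of methylated DNA, went from 90.1 and 91 CPM to 110.5 and 105 CPM (log2 fold change 0.25, SE 0.09, edgeR adjusted p = 0.0447). This was the weakest of the 22 calls: it was lost in 8 of 16 alternatives, among them RLE size factors (adjusted p = 0.0509), dropping either untreated library (0.369 and 0.306), no low-count filter (0.0565), DESeq2 (0.0679) and the deposited transformed values (0.0579).

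DNMT3A, which methylates DNA de novo (chromosome 2, 25227855 to 25342590), went from 21.7 and 18.3 CPM to 12.4 and 14.9 CPM, and its groups did not overlap (log2 fold change -0.54, SE 0.16, edgeR adjusted p = 0.016). Its call was lost without untreated replicate 1 (adjusted p = 0.276) and on both TPM scales (0.083 and 0.0843). DNMT3B, the other de novo enzyme, was at 10.9 and 10.2 CPM in untreated and 10.1 and 7.65 CPM in treated cells. Its log2 fold change of -0.27 ± 0.19 (SE) did not pass (edgeR adjusted p = 0.281), although the treated values lay below the untreated ones. Of summed DNMT transcripts in TPM, DNMT1 made up 89.8% and 91.4% before and 95.5% and 96.4% after treatment, and the share of DNMT3A went from 6.8% and 5.82% to 2.47% and 2.48%.

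The TET enzymes, which oxidise methylcytosine, and MBD2, a methyl-DNA reader of a deacetylase complex, did not pass the test. TET3 had a log2 fold change of 0.21 ± 0.12, TET2 of -0.08 ± 0.13 and MBD2 of 0.12 ± 0.11 (SE). TET1 stood at 5.46 and 6.72 CPM in untreated cells and at 3.26 and 6.35 CPM in treated cells. Treated replicate 1 was the lowest of these values and replicate 2 lay within the untreated range. Without treated replicate 2 the log2 fold change of TET1 was -0.89, and without treated replicate 1 it was 0.078. MBD2 was unlike between the treated libraries too (193 and 246 CPM). Its log2 fold change was 0.28 without treated replicate 1 and -0.067 without treated replicate 2. For DNMT3B the values were -0.47 and -0.073 in the same order.

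Of 10 tested genes from a wider list of 11 that act in DNA methylation or its removal, 2 were higher and 2 lower, which at 20% each is close to the 17.1% and 16.9% of all genes. HELLS, a remodeller needed for methylation of repeats, rose from 40.4 and 45.5 CPM to 86.6 and 84.1 CPM (log2 fold change 1.00, SE 0.10, edgeR adjusted p = 9.16e-06). TDG, the glycosylase that excises oxidised methylcytosine, rose by 0.77 on the log2 scale (edgeR adjusted p = 0.000193). The methyl-DNA binding zinc finger genes ZBTB4 and ZBTB38 had log2 fold changes of -0.28 and -0.28, calls that were lost without either untreated library (adjusted p of 0.272 and 0.249 for ZBTB4, 0.258 and 0.279 for ZBTB38). Replication genes moved with UHRF1, DNMT1 and HELLS, which are known to be made mostly in S phase: 13 of 16 were higher (81.2% against 17.1% of all genes) and 0 lower, with a median of 0.83. Their summed level was 1683 and 1717 CPM without the compound and 3062 and 2920 CPM with it. The part of cell cycle position in the changes of the members was not tested.

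Of 12 germline genes that DNA methylation is known to silence in somatic cells, 4 had enough counts to be tested; edgeR called 0 of them, none at an unadjusted p under 0.05, DESeq2 and limma-voom called 0, and limma on log2(TPM + 1) called 1. Of these, the cancer-testis gene MAGEC2 stood at 105 and 101 CPM in untreated and 111 and 103 CPM in treated cells. STAG3 (2.26 and 2.06 CPM in untreated cells), PIWIL1 (1.35 and 2.24 CPM) and SYCP3 (0.371 and 0.605 CPM) also had reads in all 4 libraries. Over the 4 tested genes the log2 fold change ran from -0.301 to 0.889, with a median of 0.2. For 1 of the 4 both treated libraries lay above both untreated ones (against 33.8% of all genes tested), and for 3 the groups overlapped. DAZL, MAEL and BRDT had at most 2 counts in any library. TEX101, MAGEA4 and SYCE1 had 0 in all 4.

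Sequences just upstream of the RefSeq start of the members called in every setting (UHRF1, DNMT1 and EED) are shown. Those of SUZ12 and EZH1, the only other members holding a match to the E2F words searched, are shown with them. E2F factors drive genes of S phase. The windows are the 250 bases before the RefSeq start (GRCh38.p14), 5′ to 3′ on the gene's strand, and capitals mark a match. The windows of UHRF1 and DNMT1 and most of that of EED lie inside the GENCODE spans of these genes. Bases before the GENCODE starts farther upstream were not searched. The UHRF1 window is chr19:4909251-4909500, plus strand. The DNMT1 window is chr19:10194954-10195203, minus strand. The others are chr11:86244503-86244752, plus strand for EED, chr17:31936757-31937006, plus strand for SUZ12 and chr17:42745041-42745290, minus strand for EZH1.
UHRF1: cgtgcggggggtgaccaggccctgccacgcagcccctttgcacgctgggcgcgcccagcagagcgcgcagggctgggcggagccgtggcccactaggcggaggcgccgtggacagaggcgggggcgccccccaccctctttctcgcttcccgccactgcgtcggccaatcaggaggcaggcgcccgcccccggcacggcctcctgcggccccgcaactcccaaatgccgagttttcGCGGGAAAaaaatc
DNMT1: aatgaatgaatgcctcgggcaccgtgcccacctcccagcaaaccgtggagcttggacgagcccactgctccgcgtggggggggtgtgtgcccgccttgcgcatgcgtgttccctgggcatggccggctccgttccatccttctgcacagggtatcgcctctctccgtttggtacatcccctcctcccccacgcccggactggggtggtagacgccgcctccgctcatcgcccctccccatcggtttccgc
EED: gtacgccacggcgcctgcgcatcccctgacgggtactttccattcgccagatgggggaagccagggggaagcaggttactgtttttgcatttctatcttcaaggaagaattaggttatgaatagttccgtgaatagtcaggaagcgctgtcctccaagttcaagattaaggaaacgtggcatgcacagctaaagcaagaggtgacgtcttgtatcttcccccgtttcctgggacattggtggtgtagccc
SUZ12: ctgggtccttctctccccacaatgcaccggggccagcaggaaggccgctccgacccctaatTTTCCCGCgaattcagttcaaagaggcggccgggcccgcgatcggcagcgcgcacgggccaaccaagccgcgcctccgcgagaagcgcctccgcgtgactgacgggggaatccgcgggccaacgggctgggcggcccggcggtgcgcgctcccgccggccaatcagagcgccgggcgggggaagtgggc
EZH1: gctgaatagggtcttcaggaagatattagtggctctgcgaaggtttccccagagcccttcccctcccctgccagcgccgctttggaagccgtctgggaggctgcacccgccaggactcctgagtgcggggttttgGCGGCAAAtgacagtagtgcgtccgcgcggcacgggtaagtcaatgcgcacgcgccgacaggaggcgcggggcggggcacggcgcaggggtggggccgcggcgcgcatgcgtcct
The words were TTTCCCGC, TTTGGCGC, TTTCGCGC and TTTGCCGC (the E2F consensus), searched on both strands, so that GCGGGAAA in UHRF1 is TTTCCCGC on the other strand; no other motif was searched. RefSeq windows were matched for 48 of 52 members. A word was present in 3 of these 48 (6.25%), against 4.58% of 10593 tested genes with a window. Among members it was in 2 of 12 that rose (UHRF1 and SUZ12), 1 of 8 that fell (EZH1) and 0 of 28 not called. Over all tested genes it was in 5.96% of those higher, 3.76% of those lower and 4.43% of those not called. The member windows held a median of 24 CpG dinucleotides, against 21 in all tested genes. The UHRF1 match begins 14 bases before the start, whereas those of SUZ12 and EZH1 begin 189 and 115 bases before it. No match in DNMT1 or EED says only that these letters are not in that window.

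The core of PRC2 rose, and its less abundant catalytic paralog fell. Of the 16 Polycomb genes 6 were higher (EED, CBX2, SUZ12, PCGF6, EZH2 and RBBP4), 2 were lower (CBX7 and EZH1) and 8 did not pass, with a median log2 fold change of -0.04. That is 37.5% higher and 12.5% lower, against 17.1% and 16.9% of all genes tested. EED, the subunit that reads the mark PRC2 makes (chromosome 11, 86244544 to 86278813), went from 24.7 and 25.5 CPM to 44.2 and 44.7 CPM. The replicates were tight and the groups far apart (log2 fold change 0.82, SE 0.11, edgeR adjusted p = 0.000101). SUZ12, the scaffold of PRC2 (chromosome 17, 31937018 to 32001045), went from 106 and 111 CPM to 138 and 166 CPM (log2 fold change 0.49, SE 0.10, edgeR adjusted p = 0.00232). EZH2, the catalytic subunit of dividing cells (chromosome 7, 148807383 to 148884321), went from 115 and 120.5 CPM to 141 and 152 CPM, a smaller shift but with no overlap (log2 fold change 0.32, SE 0.09, edgeR adjusted p = 0.0154). RBBP4, a histone-binding subunit that PRC2 shares with other complexes, went from 136 and 137 CPM to 158 and 179 CPM (log2 fold change 0.31, SE 0.09, edgeR adjusted p = 0.0213). Its paralog RBBP7 was level, at 209 and 212 CPM and 207 and 211 CPM, with a log2 fold change of -0.01 ± 0.09 (SE).

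EZH1, the catalytic paralog of resting cells (chromosome 17, 42700275 to 42745049), stood at 26 and 25.7 CPM in untreated and at 19 and 17.1 CPM in treated cells. Both treated values were below the untreated pair (log2 fold change -0.52, SE 0.13, edgeR adjusted p = 0.00753). In TPM, EZH1 made up 18.5% and 15% of EZH1 plus EZH2 before and 10.6% and 9.1% after treatment. JARID2, a PRC2 cofactor, had a log2 fold change of -0.17 ± 0.12 and did not pass. Leaving out untreated replicate 1 ended the calls of SUZ12, EZH2, RBBP4 and EZH1 (adjusted p of 0.0548, 0.288, 0.252 and 0.106), as did the TPM scales. Those of EZH2, RBBP4 and EZH1 also failed without untreated replicate 2 (0.138, 0.203 and 0.0561). Of these 4, RBBP4 moved most in size, to 0.098 on log2(TPM + 1), and it has 6 named pseudogenes and shares exon bases with the opposite-strand gene SYNC, so its own share of reads is uncertain. SUZ12 and EZH2 each have a named pseudogene as well.

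Of the PRC1 genes, the chromodomain subunits that read the PRC2 mark moved apart. CBX7, found mainly in non-dividing and stem cells, went from 10.0 and 6.24 CPM to 4.39 and 3.73 CPM; the untreated libraries differed from each other, and both exceeded the treated ones (log2 fold change -1.04, SE 0.24, edgeR adjusted p = 0.00483). CBX2, another such subunit, went from 3.57 and 3.15 CPM to 5.91 and 5.38 CPM at low levels (log2 fold change 0.73, SE 0.23, edgeR adjusted p = 0.0225). CBX6 (-0.12 ± 0.12) and CBX8 (-0.06 ± 0.22, SE) did not pass. In the summed TPM of these 4 genes, CBX7 held 13.4% in each untreated library and 8.1% and 7.59% in the treated ones, and CBX2 held 4.49% and 4.55% before and 7.92% and 8.83% after treatment. On the TPM scales neither CBX7 nor CBX2 passed. Without untreated replicate 1 the CBX7 value was -0.63 (adjusted p = 0.202) and that of CBX2 0.84 (0.0975); CBX2 also lost its call with DESeq2 (adjusted p = 0.0755) and without untreated replicate 2 (0.155). Exons of CBX7 overlap an opposite-strand transcript and, over 274 bases, the same-strand pseudogene COX5BP7. How the counting treated strand is not given in the sources used here.

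PCGF6, which with L3MBTL2 forms a variant PRC1 acting at germline genes, went from 24.1 and 25.2 CPM to 34.4 and 30.7 CPM (log2 fold change 0.40, SE 0.12, edgeR adjusted p = 0.0226). Its call was lost when either untreated library was dropped (0.255 and 0.122 as adjusted p) and on the TPM scales. L3MBTL2 did not pass, with a log2 fold change of -0.08 ± 0.14. The ubiquitin ligase genes RING1 (-0.14 ± 0.12) and RNF2 (-0.13 ± 0.12) and the canonical PRC1 gene BMI1 (0.17 ± 0.09, SE) did not pass either. BMI1 shares exons with the COMMD3-BMI1 readthrough gene, so its value is uncertain. In a wider list of 26 Polycomb genes, 5 were higher and 3 lower, with a median of 0.09; the 30.8% called is below the 33.9% of all genes. RYBP, of variant PRC1, rose by 0.55 and the repressor gene E2F6 by 0.56 on the log2 scale. AUTS2 went from 5.73 and 7.26 CPM to 11.6 and 11.8 CPM (edgeR adjusted p = 0.00301). PHF19, a cofactor that tethers PRC2 to chromatin, fell from 83.1 and 81.6 CPM to 55.5 and 46.6 CPM (log2 fold change -0.70, SE 0.11, edgeR adjusted p = 0.000257). On the TPM scales these 4 calls were lost (for PHF19 the adjusted p was 0.069 and 0.0672), and those of E2F6 and AUTS2 also without untreated replicate 1 (0.0919 and 0.0946).

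**Figure D3:**
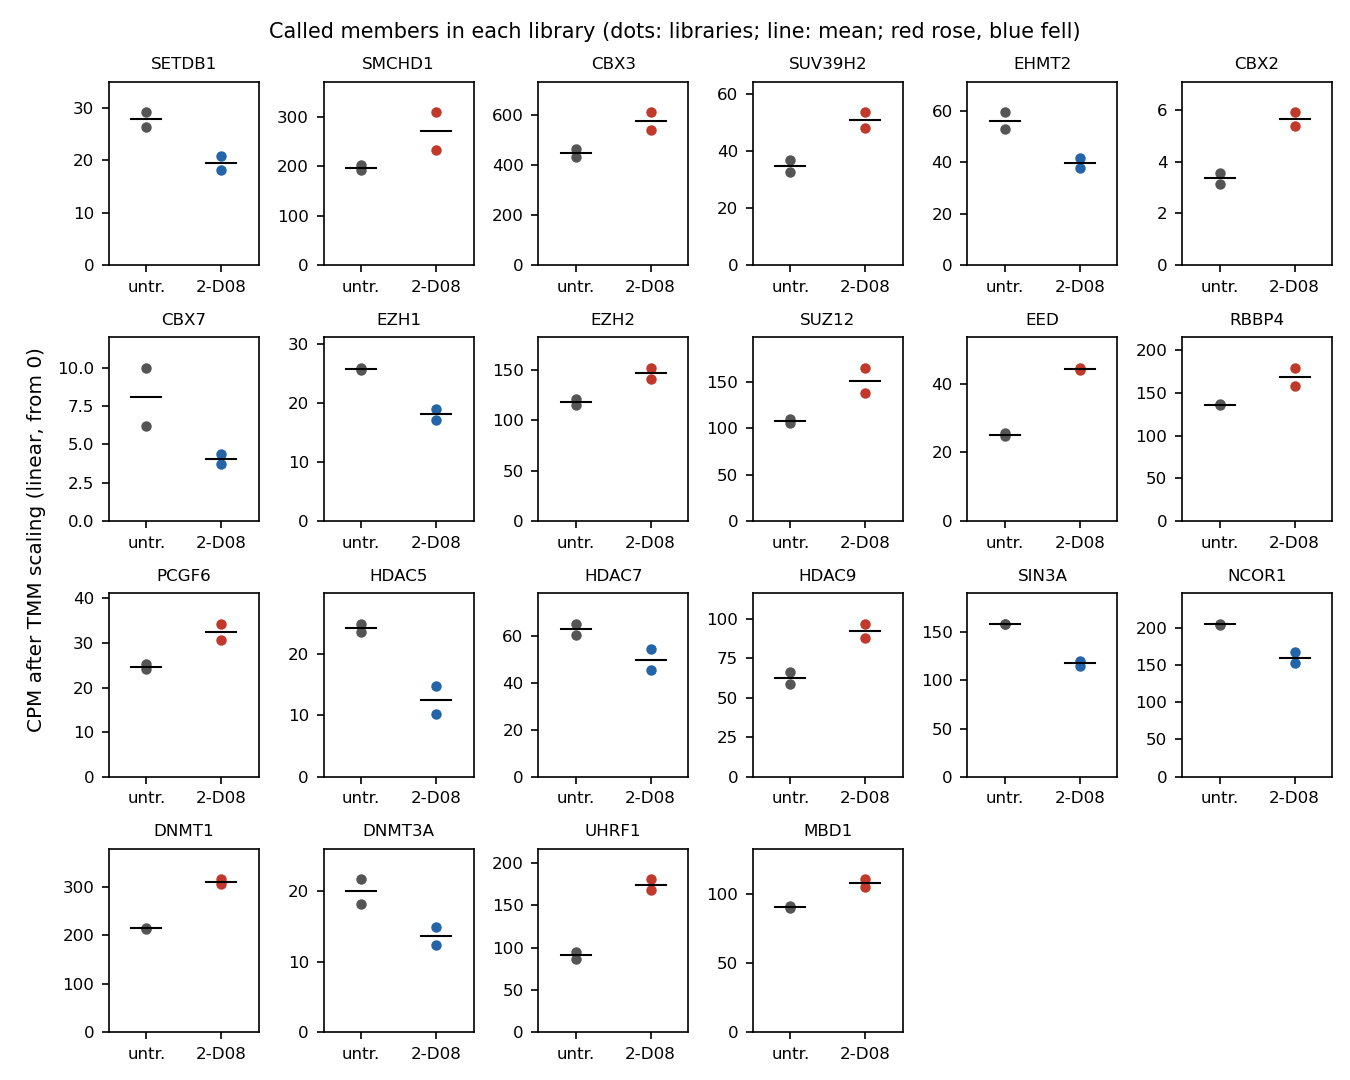
CPM after TMM scaling of each of the 22 called members (y axes, linear from 0) in untreated (grey) and treated libraries (red where called higher, blue where called lower); each dot is a library and the line is the mean of 2. The 2 groups do not overlap in any panel, but the members shown were picked by their calls in these same libraries. Over all genes tested, 67.5% do not overlap. The treated libraries of SMCHD1 (232 and 309.6 CPM) stand farther apart than the untreated ones.

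Genes of H3K9 methylation and HP1 moved in both directions. Of 7 genes 2 were higher (SUV39H2 and CBX3), 1 was lower (EHMT2) and 4 did not pass, with a median of 0.05. These shares, 28.6% and 14.3%, stand against 17.1% higher and 16.9% lower over all genes tested. SUV39H2, which makes the trimethylated H3K9 of heterochromatin (chromosome 10, 14878820 to 14904315), went from 32.8 and 36.9 CPM to 48 and 53.7 CPM, with groups well apart (log2 fold change 0.55, SE 0.11, edgeR adjusted p = 0.00221). Its paralog SUV39H1 was lower in abundance, at 15.8 and 13.6 CPM and 15.9 and 14.7 CPM, and its groups overlapped (0.05 ± 0.15, SE). In TPM, SUV39H2 made up 73.1% and 78.5% of the pair in untreated and 81.7% and 86.9% in treated libraries. EHMT2, or G9a, makes the dimethylated form in gene-rich regions (chromosome 6, 31879759 to 31897687); it went from 59.4 and 52.9 CPM to 41.5 and 37.7 CPM, and both treated values were lower (log2 fold change -0.51, SE 0.11, edgeR adjusted p = 0.003). Its partner EHMT1 stood at 66.3 and 59.3 CPM and then at 56.4 and 47.3 CPM. That difference of -0.29 ± 0.11 (SE) did not pass (edgeR adjusted p = 0.0663), but passed with limma-voom (adjusted p = 0.0454). It was -0.42 without treated replicate 1 and -0.17 without treated replicate 2. On log2(TPM + 1) its sign turned (0.50, adjusted p = 0.412), where untreated replicate 1 stood at less than the other 3 libraries.

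HP1 proteins bind methylated H3K9. CBX3, or HP1 gamma (chromosome 7, 26201162 to 26213356), went from 434 and 466 CPM to 539.6 and 612 CPM (log2 fold change 0.36, SE 0.09, edgeR adjusted p = 0.01). CBX1, or HP1 beta, was at 219.9 and 239 CPM and 259.7 and 271 CPM, without overlap, and did not pass (log2 fold change 0.21, SE 0.09, edgeR adjusted p = 0.0902). CBX5, or HP1 alpha, was at 393 and 378 CPM and 339.9 and 398 CPM and its groups overlapped (log2 fold change -0.06, SE 0.10, edgeR adjusted p = 0.644). CBX3 has 9 named pseudogenes, CBX1 has 5 and CBX5 has 1, and CBX3 also shares exon bases with HNRNPA2B1 on the opposite strand, so reads could be split. When untreated replicate 1 was dropped, CBX3, SUV39H2 and EHMT2 did not pass (0.25, 0.0777 and 0.11 as adjusted p), and CBX3 failed again when untreated replicate 2 was dropped (0.0857) and on the TPM scales.

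In the KAP1/HUSH group the targeting and reader subunits did not pass the test, and SETDB1 and SMCHD1 were the 2 called members of 9. That share of 22.2% is below the 33.9% of all genes. The group's median was 0.09. SETDB1, the methyltransferase that KAP1 and HUSH use (chromosome 1, 150926263 to 150964744), went from 29.2 and 26.4 CPM to 20.8 and 18.2 CPM, and both treated values were below the untreated ones (log2 fold change -0.52, SE 0.13, edgeR adjusted p = 0.00786). SMCHD1, a structural protein of silent chromatin on the inactive X (chromosome 18, 2655738 to 2805017), went from 192 and 202 CPM to 232 and 309.6 CPM (log2 fold change 0.46, SE 0.12, edgeR adjusted p = 0.00794). Treated replicate 2 was much higher than replicate 1: without it the log2 fold change of SMCHD1 was 0.24, and without treated replicate 1 it was 0.65. Neither gene passed when untreated replicate 1 was dropped (0.168 and 0.082 as adjusted p) or on the TPM scales (0.086 and 0.0845 for SETDB1, 0.0878 and 0.0845 for SMCHD1). SETDB1 shares exon bases with CERS2 on the opposite strand.

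TRIM28, the KAP1 gene, stood at 202 and 178 CPM in untreated and at 230.2 and 176 CPM in treated cells. The treated libraries lay at the top and at the bottom of the 4 values, and the difference did not pass (log2 fold change 0.09, SE 0.12, edgeR adjusted p = 0.588). Its sign depended on the library: 0.27 without treated replicate 2 and -0.12 without treated replicate 1. MPHOSPH8, the HUSH reader, was at 62.2 and 70.2 CPM and 60.1 and 69.8 CPM, with overlapping groups (-0.02 ± 0.11, SE). The HUSH scaffold TASOR (-0.10 ± 0.10), its partner PPHLN1 (0.10 ± 0.09), the ATPase MORC2 (0.10 ± 0.09), the SETDB1 cofactor ATF7IP (-0.04 ± 0.10) and the SETDB1 paralog SETDB2 (0.15 ± 0.13, SE) did not pass either. Without treated replicate 2 the log2 fold change of TASOR was -0.21, and without treated replicate 1 it was -0.0098.

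Of 15 further genes that act with KAP1 or on H3K9, 7 were higher and 2 lower (46.7% and 13.3%, against 17.1% and 16.9% of all genes), with a median of 0.33. The 2 with the smallest p, CHAF1A (log2 fold change 1.14, SE 0.10, edgeR adjusted p = 1.43e-06) and CHAF1B (0.77), encode the histone chaperone of DNA replication. TASOR2, a paralog of TASOR, rose by 0.49 on the log2 scale, a call not made on the TPM scales (0.0629 and 0.0615 as adjusted p). KMT5B, which methylates histone H4, had a log2 fold change of -0.50 that did not hold without untreated replicate 2 (adjusted p = 0.0545) or on either TPM scale. Of 11 demethylases of silencing marks, 0 were higher (against 17.1% of all genes) and 5 lower (45.5% against 16.9%). KDM7A went from 52.9 and 57.7 CPM to 27.8 and 32.2 CPM (log2 fold change -0.87, SE 0.12, edgeR adjusted p = 8.32e-05), and KDM4B (-0.53), KDM4A (-0.43) and KDM3B (-0.36) were the next by p. The calls of KDM4A, KDM4B and KDM3B were not made when untreated replicate 1 was dropped (0.12, 0.204 and 0.0905 as adjusted p) nor on the TPM scales, and that of KDM3B failed also without untreated replicate 2 (0.165).

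**Figure D4:**
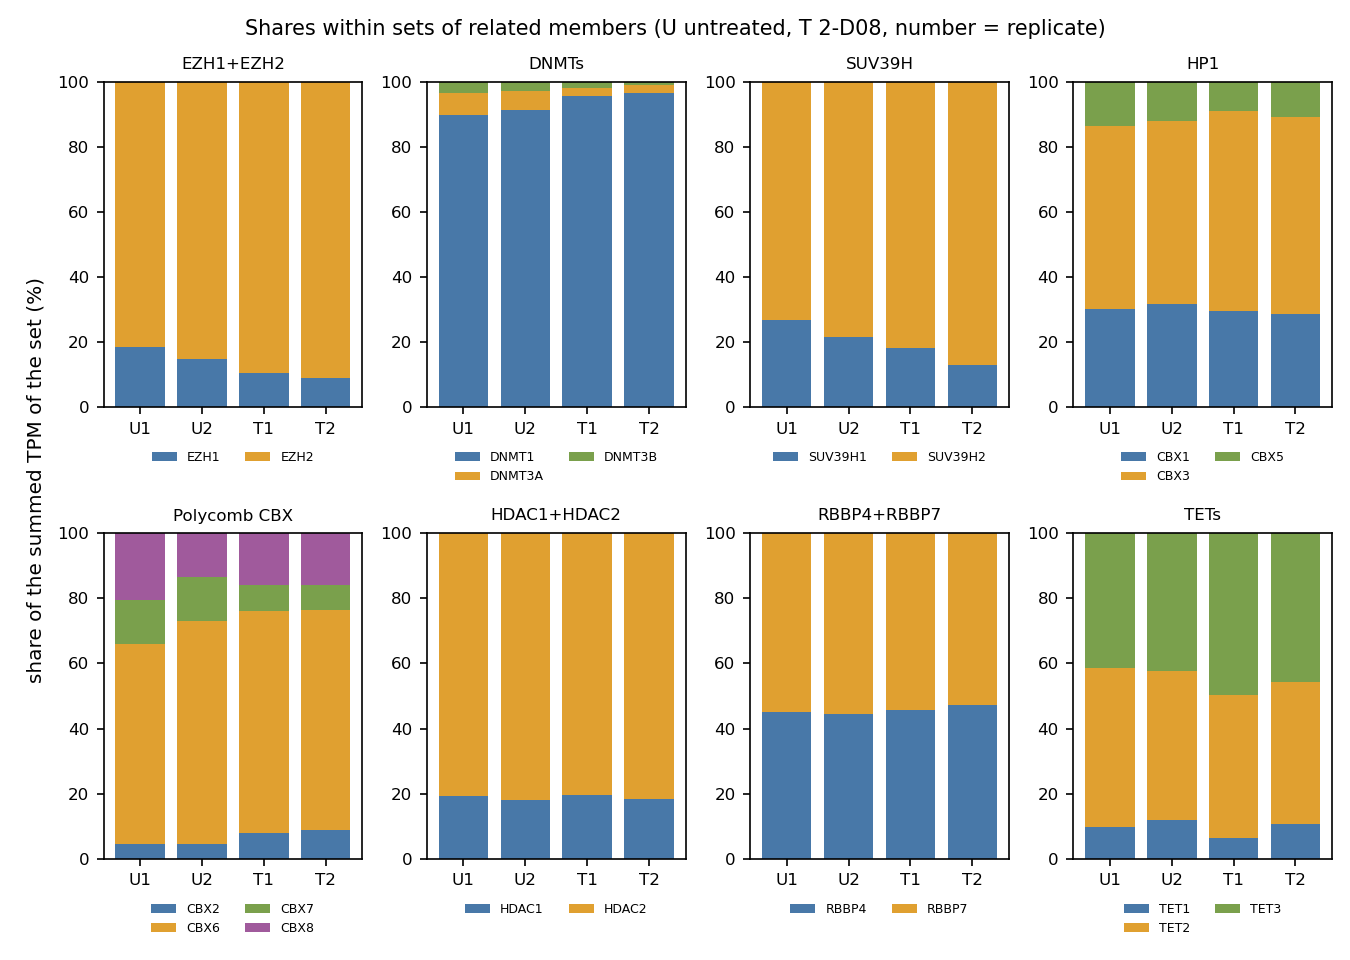
Share of each gene in the summed TPM of its set of related members (y axis, percent) in the 4 libraries (x axis; U untreated, T treated, with the replicate number). The EZH1 and DNMT3A shares are lower in both treated libraries, whereas those of HDAC1 (18.1% to 19.7% in all 4 libraries) and of RBBP4 (44.6% to 47.2%) moved little.

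Among the deacetylase genes, class I enzymes did not pass the test, whereas 3 of 4 class IIa enzymes and 2 corepressors were called. Of the 11 genes 1 was higher (HDAC9) and 4 were lower (HDAC5, SIN3A, NCOR1 and HDAC7), with a median of -0.10. That is 9.09% higher and 36.4% lower, against 17.1% and 16.9% of all genes tested, of which 33.9% were called. Class I enzymes carry most nuclear deacetylase activity. HDAC1 was at 121 and 112 CPM and 126 and 128 CPM (log2 fold change 0.12, SE 0.09, edgeR adjusted p = 0.336). HDAC2 was at 369 and 388 CPM and 402 and 464 CPM. Its treated values lay above the untreated ones without passing (log2 fold change 0.19, SE 0.10, edgeR adjusted p = 0.131). Its log2 fold change was 0.29 without treated replicate 1 and 0.082 without treated replicate 2. In TPM, HDAC2 made up 80.3% to 81.9% of the pair in all 4 libraries. HDAC3, the enzyme of the NCOR1 complex, had a log2 fold change of -0.18 ± 0.14 (SE) with overlapping groups. Its value was -0.36 without treated replicate 1 and -0.0057 without treated replicate 2.

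Class IIa enzymes shuttle between nucleus and cytoplasm and bind MEF2 factors. HDAC5 (chromosome 17, 44076746 to 44123702) went from 24.9 and 23.6 CPM to 14.8 and 10.2 CPM, the steepest fall of the group, with no overlap (log2 fold change -0.98, SE 0.17, edgeR adjusted p = 0.000624). HDAC7 went from 65.2 and 60.3 CPM to 54.4 and 45.3 CPM (log2 fold change -0.34, SE 0.11, edgeR adjusted p = 0.0313). HDAC9 (chromosome 7, 18086949 to 19002416) went the other way, from 58.5 and 66.1 CPM to 87.7 and 96.8 CPM (log2 fold change 0.57, SE 0.10, edgeR adjusted p = 0.000775). HDAC4 was at 16 and 15.8 CPM and 17.1 and 17.5 CPM and did not pass (0.12 ± 0.14, SE). HDAC5, HDAC7 and HDAC9 did not pass on the TPM scales (the adjusted p was 0.0904, 0.3 and 0.0718 on log2(TPM + 1)), and HDAC7 also without untreated replicate 1 (0.319), untreated replicate 2 (0.0954) or treated replicate 2 (0.111). HDAC7 shares exon bases with opposite-strand transcripts.

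SIN3A, the scaffold of a deacetylase complex (chromosome 15, 75369379 to 75455842), went from 159 and 159 CPM to 115 and 121 CPM; replicates were close and the groups apart (log2 fold change -0.43, SE 0.09, edgeR adjusted p = 0.00221). NCOR1, the corepressor of nuclear receptors (chromosome 17, 16029157 to 16218185), went from 206 and 203 CPM to 152 and 167 CPM (log2 fold change -0.36, SE 0.09, edgeR adjusted p = 0.00867). NCOR1 has 3 named pseudogenes. Without untreated replicate 1 the calls of SIN3A (adjusted p = 0.0619) and NCOR1 (0.161) were lost, the latter also without untreated replicate 2 (0.11). The demethylase gene KDM1A (-0.10 ± 0.09) and its cofactor RCOR1 (-0.09 ± 0.09, SE) did not pass. In a wider list, 25 of 26 genes of deacetylase complexes were tested; 2 were higher and 9 lower (36% against 16.9% of all genes), with a median of -0.21. TBL1X and TBL1XR1, subunits of the NCOR1 complex, fell by 0.53 and 0.47 on the log2 scale. The call of TBL1XR1 was lost without untreated replicate 2 (adjusted p = 0.0578). HDAC6, the cytoplasmic tubulin deacetylase, went from 31.9 and 29.2 CPM to 17.5 and 16.2 CPM (log2 fold change -0.87, SE 0.13, edgeR adjusted p = 0.000216). HDAC11 went from 6.67 and 4.72 CPM to 2.06 and 2.2 CPM, with a log2 fold change of -1.43 that did not pass on either TPM scale (0.0989 and 0.0959 as adjusted p).

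**Figure D5:**
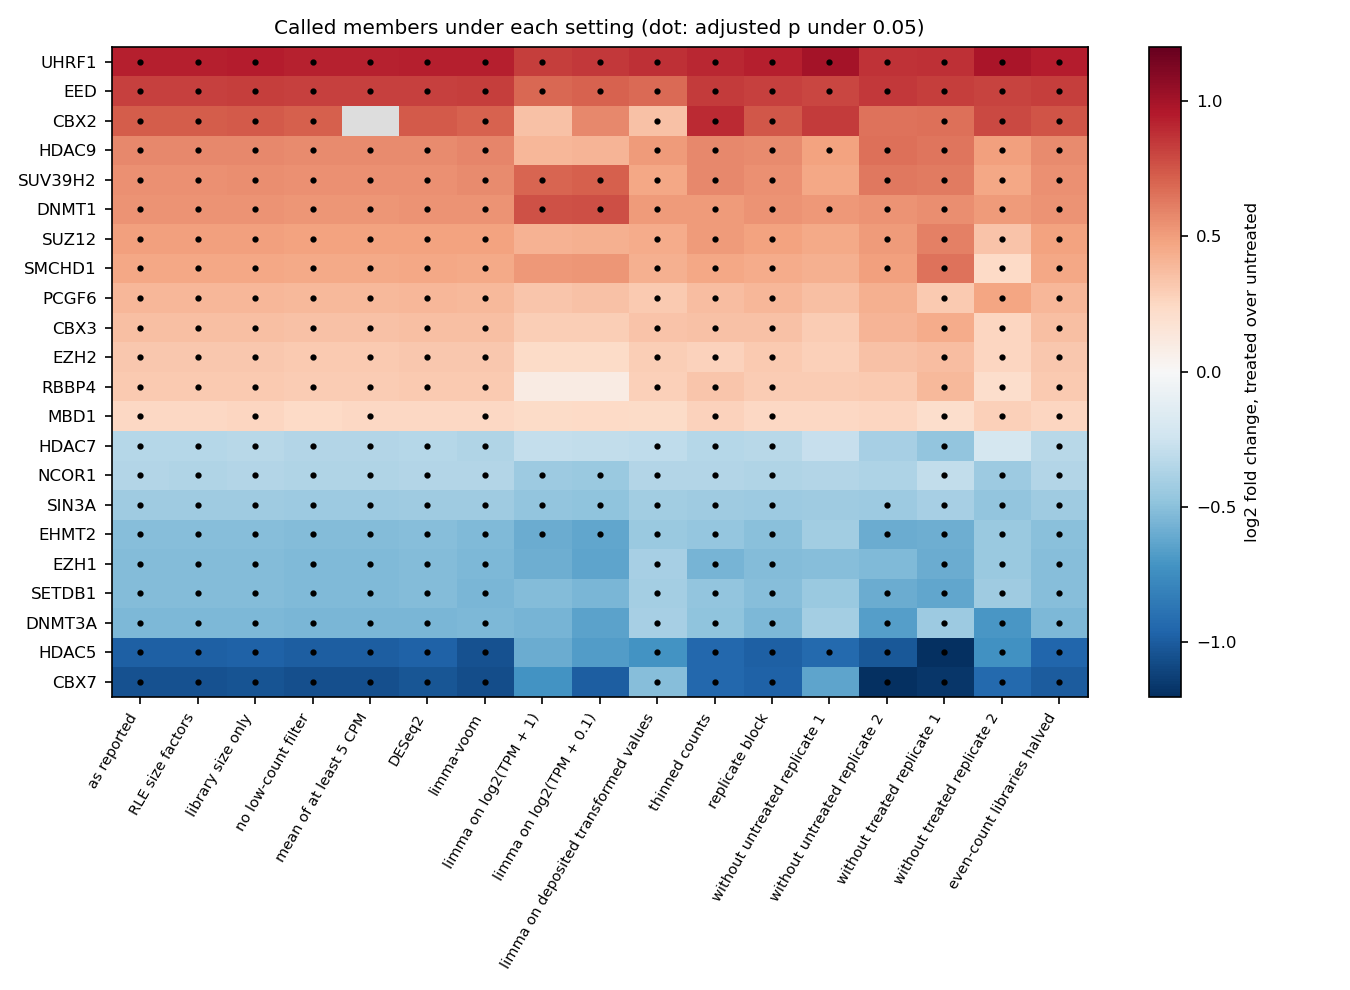
Log2 fold change, treated over untreated (colour), of the 22 called members (y axis) as reported and under the 16 alternatives (x axis); dots mark an adjusted p under 0.05, and grey marks CBX2, whose mean was under 5 CPM. UHRF1, EED and DNMT1 carry a dot in every column, and the columns without untreated replicate 1 and on the TPM scales hold the fewest dots.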

How the data were processed

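The authors deposited 3 tables with a column per library, and 0 columns were left unmapped; columns whose names carry no compound were taken as untreated. The submitters' processing notes name STAR 2.7.8a, cutadapt 3.4, GRCh38 and DESeq2. The counting tool, its strand setting and the annotation were not given in the sources used here. Deposited read counts are whole numbers, not normalised. The deposited TPM values are scaled for transcript length and depth. The third deposited table was read as log2-like transformed values, from its range, and served 1 alternative only.

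Counts of 12906 genes passing filterByExpr (minimum count 10) were scaled with TMM and tested with edgeR 4.0.16 (quasi-likelihood, robust, two-sided) in R 4.3.3, with Benjamini-Hochberg adjustment over all of them. Standard errors were derived from the F statistic. The other tools were limma 3.58.1 and DESeq2 1.42.0. On simulated counts for these 12906 genes, treated against untreated, 68.7% of genes changed 1.5-fold, 87.9% changed 2-fold and 98.4% changed 4-fold were recovered. The simulation gave every gene the same spread beyond counting error. It held only 67, 66 and 64 changed genes at these folds, against 4376 called in the data. These rates therefore need not hold for the members. All 52 members are accounted for. CPM values per library are given for called members and 13 core ones chosen by role, and up to 4 called genes with the smallest p and a mean of at least 1 CPM are named from each wider list. Members and lists were chosen with earlier results of these data known. Positions and pseudogenes are from GENCODE release 29 (GRCh38) and promoter windows from RefSeq (GRCh38.p14). Counting error was not separated from the spread between libraries. It is larger for members with few reads, such as CBX2 (52 to 166 counts per library). With 2 libraries per group the spread between them also limits the precision.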

Additional observations from a re-analysis of the deposited data

How the results depend on the processing

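Of the 22 called members 3 kept their calls in all 16 alternatives and 0 turned sign; of 30 not called, 11 passed in at least 1. The fit reported called 4376 genes (2201 higher and 2175 lower); limma called 1598 on log2(TPM + 1), of which 702 rose and 896 fell, and 1608 on log2(TPM + 0.1), of which 714 rose and 894 fell. On both scales 7 members changed, 4 higher and 3 lower: 0 of the KAP1/HUSH group, 2 of HP1 and H3K9 methylation, 1 of Polycomb, 2 of the deacetylase group and 2 of DNA methylation, and the cause was not tested. With any 1 library left out, so that the remaining library of that group is taken to have the spread of the other group, 1866 to 6077 genes changed (949 to 2931 higher, 917 to 3146 lower) and 5 to 30 members (4 to 17 higher, 1 to 13 lower). By group, 0 to 4 changed in KAP1/HUSH, 0 to 5 in HP1 and H3K9 methylation, 1 to 10 in Polycomb, 2 to 7 in the deacetylase group and 2 to 6 in DNA methylation. The lowest of each of these ranges came without untreated replicate 1. No label says that equal replicate numbers pair libraries. The log2 difference of replicate 1 minus replicate 2 was taken within each group. Between the groups these differences correlated at 0.21 across 12906 genes and at 0.4 across the 10502 with a mean of at least 5 CPM. Adding the replicate number as a block gave calls for 6239 genes and 25 members, with CBX1, EHMT1 and HDAC2 added, so that 5 changed in the HP1 and H3K9 group. Members not called that turned sign on log2(TPM + 1) and log2(TPM + 0.1) were PPHLN1 (-0.061 and -0.061), TASOR (0.16 and 0.16), SUV39H1 (-0.056 and -0.061), EHMT1 (0.50 and 0.51) and RBBP7 (0.0044 on both). Over the fits without a library, values of those that turned sign ran from -0.12 to 0.27 for TRIM28, -0.14 to 0.053 for ATF7IP, -0.14 to 0.078 for MPHOSPH8, -0.19 to 0.042 for CBX5, -0.051 to 0.17 for SUV39H1, -0.26 to 0.034 for CBX6, -0.22 to 0.15 for CBX8, -0.029 to 0.0007 for RBBP7, -0.22 to 0.053 for L3MBTL2, -0.067 to 0.28 for MBD2 and -0.89 to 0.078 for TET1. Of 24 named pathway genes 13 lost a call somewhere and 0 turned sign.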
